A study of Homo sapiens with 3 samples.

Results

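The 10 genes described here are the D cyclins CCND1, CCND2 and CCND3, the CIP/KIP inhibitors CDKN1A, CDKN1B and CDKN1C, and the INK4 inhibitors CDKN2A, CDKN2B, CDKN2C and CDKN2D. The rule took them by family and used no measured value, although earlier results of these data were known when it was written, and all 10 were found among the 60880 gene rows of the count file. Counts came from NCI-H1975, an established human lung adenocarcinoma line, in its wild-type state, which is the parental state that was not made resistant to anlotinib, an oral inhibitor of receptor tyrosine kinases. The study set this state against anlotinib-resistant cells, and also profiled resistant cells with knockdown of TFAP2A. Values were taken from a single library, wild-type RNA-seq replicate 2, grown in serum-containing medium with no drug named in its labels, so no comparison between cell states and no test was made. The 2 wild-type ATAC-seq samples and all resistant and knockdown cells were not analysed here.

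D cyclins are the regulatory subunits of the kinases CDK4 and CDK6. Their genes respond to mitogen and receptor signalling, and the kinases they activate phosphorylate the retinoblastoma protein and its relatives, which frees E2F factors to drive genes of DNA synthesis. INK4 proteins bind CDK4 and CDK6 and keep D cyclins from activating them, whereas CIP/KIP proteins restrain cyclin E and cyclin A complexes with CDK2 and can also help D cyclins assemble with their kinases. In lung adenocarcinoma, loss of CDKN2A and sustained D cyclin production are well-known routes around this control. Cell line catalogues list a truncating CDKN2A mutation in NCI-H1975, and a read count per gene cannot show what protein is made.

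The start regions of the 2 inhibitor genes with the most reads are shown, and those of CDKN2A bear on what a gene count can tell. CDKN2A has a pair of distant starts, one for the transcript of the ARF protein and one for that of the INK4 protein p16, and its single count sums both. The windows run from 250 bases before to 50 after each start, 5′ to 3′ on the gene's strand, from RefSeq on GRCh38.p14, and capitals mark each match to the GC box GGGCGG or its reverse complement. The first CDKN2A window (chr9:21995275-21995574, minus strand) is the upstream start, the second (chr9:21974808-21975107, minus strand) is the downstream start, and the CDKN1A window is chr6:36678464-36678763, plus strand.
CDKN2A upstream start: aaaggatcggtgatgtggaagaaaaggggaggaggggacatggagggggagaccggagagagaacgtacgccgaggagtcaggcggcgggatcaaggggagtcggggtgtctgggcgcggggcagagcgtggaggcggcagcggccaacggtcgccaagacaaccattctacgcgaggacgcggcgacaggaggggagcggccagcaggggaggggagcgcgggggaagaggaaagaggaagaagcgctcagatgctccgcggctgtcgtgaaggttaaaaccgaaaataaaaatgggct
CDKN2A downstream start: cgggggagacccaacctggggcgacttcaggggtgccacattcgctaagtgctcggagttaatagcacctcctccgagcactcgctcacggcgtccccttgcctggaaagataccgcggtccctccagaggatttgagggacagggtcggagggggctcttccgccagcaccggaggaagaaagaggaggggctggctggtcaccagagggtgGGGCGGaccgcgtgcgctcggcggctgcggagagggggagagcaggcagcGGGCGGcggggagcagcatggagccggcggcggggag
CDKN1A start: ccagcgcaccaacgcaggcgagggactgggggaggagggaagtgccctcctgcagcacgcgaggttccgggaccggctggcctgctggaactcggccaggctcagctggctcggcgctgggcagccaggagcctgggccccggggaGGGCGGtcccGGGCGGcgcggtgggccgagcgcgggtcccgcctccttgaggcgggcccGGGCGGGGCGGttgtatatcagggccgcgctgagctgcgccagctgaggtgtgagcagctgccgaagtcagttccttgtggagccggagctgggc

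The upstream CDKN2A window held 0 GC boxes and the downstream one held 2, while the CDKN1A window held 4. Of 34796 windows of this length in the RefSeq table, 44.9% held at least 1. CpG dinucleotides numbered 28, 26 and 29 in the upstream CDKN2A, downstream CDKN2A and CDKN1A windows, against a median of 14 over all windows. Other member windows lay on both sides of that median. CDKN2C windows held 8, 37 and 11, and CCND3 windows held 29, 37 and 3. GC boxes in the windows of CDKN2C numbered 0, 6 and 1, and in those of CCND3 5, 4 and 0. The windows of CDKN1B, CDKN2B and CDKN2D held 1, 2 and 3. Of all windows, 5.12% held 5 or more. In all, 7 members matched 12 windows in this table. The members without one were CCND1, CCND2 and CDKN1C. The words TTTCCCGC, TTTCGCGC, TTTGCCGC and TTTGGCGC, forms of the E2F site, were in 0 of the 12 member windows on either strand and in 3.30% of all windows. The word TATAAA was likewise in 0 of 12, against 11.6% of all windows, and CCAAT was in 5 member windows, among them 3 matches at CDKN1B, against 34.6%. No match overlapped a match of another motif. With 12 windows, several from the same gene, a count of 0 for words this uncommon does not set the members apart. A match is a description of letters, not of binding.

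The library held 25012733 counts, and a gene with at least 10 was called detected. CPM is counts per 1000000 counts of the library, and 1 count equalled 0.04 CPM. Intervals are exact 95% Poisson intervals for levels and binomial ones for shares and ratios, and they reflect counting error alone. No exon lengths were used here and CPM takes no account of them, so every order or ratio between genes below is one of read numbers and not of transcript molecules. Epithelial markers were all detected (8 of 8, 298827 counts, led by KRT7, KRT8 and KRT19, with 2926 for the lung lineage factor NKX2-1). Of 6 fibroblast markers 2 were detected (COL1A1 with 7847 counts and COL1A2 with 4104), with DCN, LUM and PDGFRA at 0. Leukocyte markers had 2 of 6 detected, summing to 635 counts of which CD14 held 600, with CD3D at 0, and endothelial markers had 3 of 6, summing to 386 counts of which CDH5 held 340, with CLDN5 and TIE1 at 0. The part of these markers in the values below was not tested.

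All 7 inhibitors and 2 of the 3 D cyclins were detected, 9 of 10 members in all. Over the 19056 protein-coding genes with a row the share was 69.7%. Of 106 genes in the lists of pathway steps, regulators and neighbours below, 101 were detected, so detection in full does not set a list apart. The 10 members together took 14665 counts, or 0.0586% of the library. Their median was 38.8 CPM with CCND2 included, against 9.83 CPM over all protein-coding genes and 26.4 CPM over the detected ones. Above this last level lay 6 of the 10 members and 34.8% of all protein-coding genes. The members above it were CCND1, CCND3, CDKN1A, CDKN1B, CDKN2A and CDKN2B, and CDKN2C, CDKN1C, CDKN2D and CCND2 lay below. The side of the median depended on the reference set for CDKN2C, which stood at the 53.5 percentile of protein-coding genes with at least 1 count and at the 59.9 percentile of all genes with at least 10 counts, and for CDKN1C, which stood at the 52.5 percentile of the latter.

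**Figure D1:**
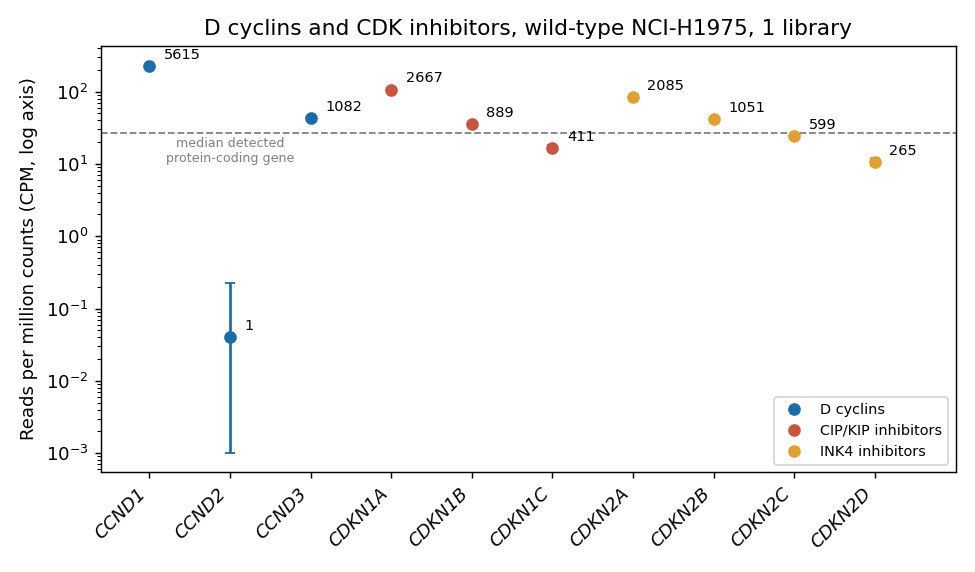
Level of each of the 10 genes in CPM on a log axis, with points for the single wild-type library, bars for exact 95% Poisson intervals and raw counts beside the points. The dashed line is the median of detected protein-coding genes, 26.4 CPM. CCND1 stands highest with 5615 counts and CCND2 far below the rest with 1.

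Among the D cyclins, CCND1 carried most of the reads, CCND3 the remainder, and CCND2 almost none. CCND1 (ENSG00000110092.3_2), the D cyclin that is amplified or overproduced in many carcinomas, had 5615 counts, or 224 CPM (95% interval 219 to 230), more than 94.4% of detected protein-coding genes. CCND3 (ENSG00000112576.12_3), best known from lymphoid and muscle cells, had 1082 counts, or 43.3 CPM (40.7 to 45.9), more than 63.9% of them. CCND2 (ENSG00000118971.7_4), a D cyclin of ovary, brain and lymphoid tissue, had 1 count, or 0.04 CPM (0.00101 to 0.223). CCND1 thus drew 83.8% (82.9 to 84.7) of D cyclin reads, CCND3 16.2% (15.3 to 17.1) and CCND2 0.0149% (0.000378 to 0.0832). The ratio of CCND1 to CCND3 reads was 5.19 (4.86 to 5.54). The ratio of CCND1 to CCND2 reads was 5615, with a counting interval of 1007 to 221820, since it rests on a single CCND2 read. CCND2-AS1, which overlaps CCND2, was at 0, which allows up to 0.12 CPM, and so were the pseudogenes CCND2P1 and CCND3P2. CCND3P1 had 1 count. The antisense gene and the pseudogene of CCND2 thus held no reads.

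The genes that flank CCND1 did not all carry reads. LTO1, a gene involved in ribosome biogenesis, had 1469 counts, or 58.7 CPM (55.8 to 61.8), and MYEOV had 1337 counts, or 53.5 CPM (50.6 to 56.4). The growth factor gene FGF19 had 46 counts. FGF4 had 1 count, the chloride channel gene ANO1 had 4, and FGF3 was at 0. Of these 6 neighbours, 3 were detected, against 69.7% of all protein-coding genes, and the read-bearing ones had fewer reads than CCND1.

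Of the CIP/KIP family, all 3 members were detected and CDKN1A had the most reads. CDKN1A (ENSG00000124762.13_3) encodes p21, the CDK2 inhibitor induced after DNA damage, and it had 2667 counts, or 107 CPM (103 to 111), more than 85.0% of detected protein-coding genes. CDKN1B (ENSG00000111276.10_4) encodes p27, which accumulates in resting cells largely through slower degradation, and it had 889 counts, or 35.5 CPM (33.2 to 38.0), more than 58.4% of them. CDKN1C (ENSG00000129757.13_3) encodes p57, the imprinted member of the family, and it had 411 counts, or 16.4 CPM (14.9 to 18.1), more than 38.3% of them. CDKN1A drew 67.2% (65.7 to 68.7) of the family's reads, CDKN1B 22.4% (21.1 to 23.7) and CDKN1C 10.4% (9.43 to 11.4). CDKN1A had 3.0 times (2.78 to 3.24) the reads of CDKN1B, which in turn had 2.16 times (1.92 to 2.44) those of CDKN1C. DINOL, a non-coding gene that overlaps CDKN1A in the RefSeq table, had 1 count.

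The INK4 family was detected in full. CDKN2A (ENSG00000147889.17_3), whose starts are printed above and whose proteins are the CDK4 and CDK6 inhibitor p16 and ARF, had 2085 counts, or 83.4 CPM (79.8 to 87.0), more than 80.4% of detected protein-coding genes. CDKN2B (ENSG00000147883.10_2), its neighbour and the gene of the TGF-beta-inducible p15, had 1051 counts, or 42.0 CPM (39.5 to 44.6), more than 63.2% of them. CDKN2C (ENSG00000123080.10_2), the gene of p18, had 599 counts, or 23.9 CPM (22.1 to 25.9), more than 47.5% of them. The fewest reads of the family fell on CDKN2D (ENSG00000129355.6_2), the gene of p19-INK4D, with 265 counts, or 10.6 CPM (9.36 to 12.0), more than 29.4% of them. CDKN2A held 52.1% (50.6 to 53.7) of INK4 reads, CDKN2B 26.3% (24.9 to 27.7), CDKN2C 15.0% (13.9 to 16.1) and CDKN2D 6.63% (5.87 to 7.44). Each step down this order exceeded counting error. The ratio was 1.98 (1.84 to 2.14) from CDKN2A to CDKN2B, 1.75 (1.59 to 1.94) from CDKN2B to CDKN2C and 2.26 (1.95 to 2.62) from CDKN2C to CDKN2D.

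Genes around CDKN2A and CDKN2B were read because this locus is often deleted as a block in cancers. MTAP, the methylthioadenosine phosphorylase gene beside CDKN2A that is commonly lost with it, had 515 counts, or 20.6 CPM (18.8 to 22.4). CDKN2B-AS1, the long non-coding RNA also called ANRIL, whose RefSeq span overlaps those of CDKN2A and CDKN2B, had 49 counts, or 1.96 CPM (1.45 to 2.59). CDKN2A-DT was at 0. Reads were thus present over CDKN2A, CDKN2B and MTAP, and copy number was not tested. The sources used here do not say whether the counting used strand, so reads of CDKN2B-AS1 and of the genes it overlaps cannot be told apart with certainty. CDKN2B had 21.4 times (16.1 to 29.2) the reads of CDKN2B-AS1.

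**Figure D2:**
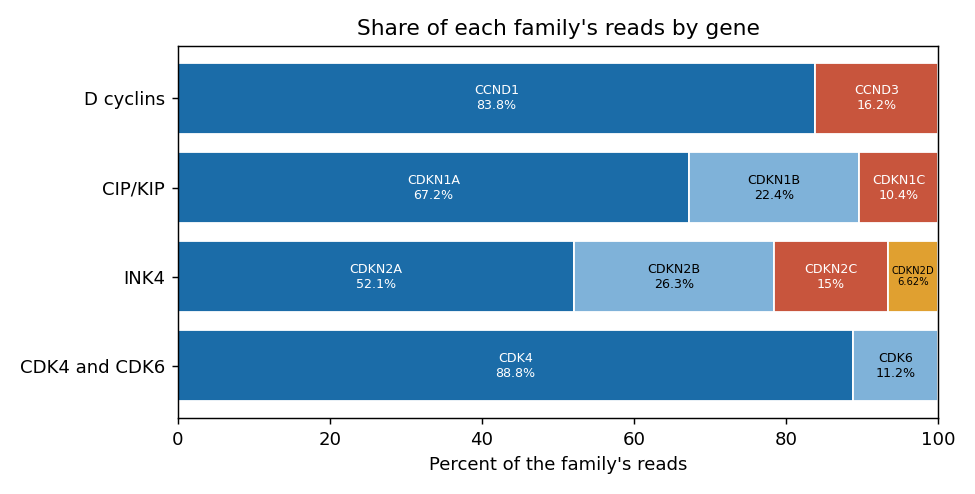
Percent of each family's reads held by each gene, for D cyclins, CIP/KIP inhibitors, INK4 inhibitors and the kinases CDK4 and CDK6, in the single wild-type library. One gene takes more than any other in each bar, from 52.1% for CDKN2A to 88.8% for CDK4, and CCND2 is too small to be seen.

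Summed over families, CIP/KIP and INK4 genes drew nearly equal read numbers, 3967 and 4000, a ratio of 0.992 (0.949 to 1.04). All inhibitors together had 7967 counts and all D cyclins 6698, a ratio of 1.19 (1.15 to 1.23). CDK4 and CDK6 together had 7940 counts, and the ratio of inhibitor reads to theirs was 1.0 (0.973 to 1.04). CDKN1A and CDKN2A made up 33.5% and 26.2% of inhibitor reads. Between these leading members of the CIP/KIP and INK4 families, CDKN1A had 1.28 times (1.21 to 1.36) the reads of CDKN2A.

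**Figure D3:**
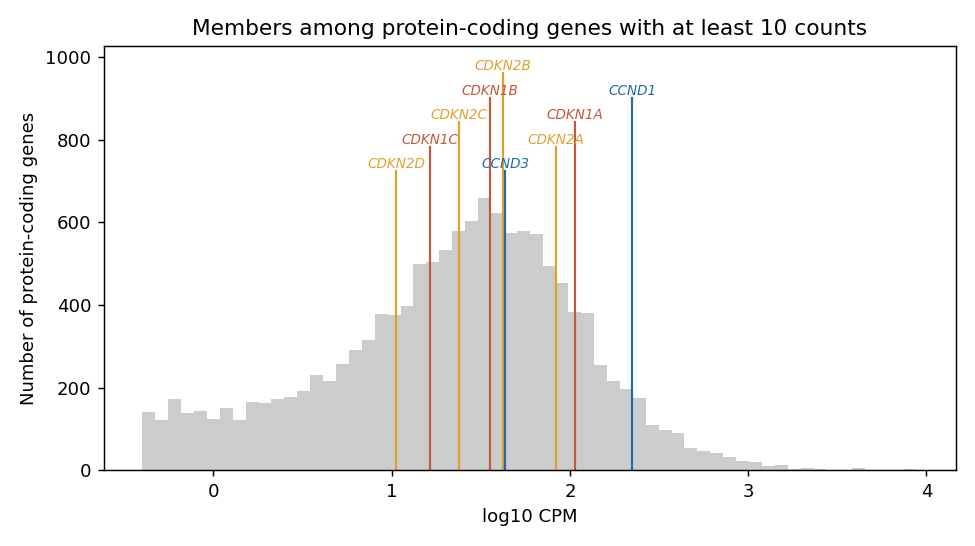
Histogram of log10 CPM over the 13279 protein-coding genes with at least 10 counts, with vertical lines at the 9 detected members (D cyclins blue, CIP/KIP red, INK4 yellow). CDKN2D lies on the left shoulder at 10.6 CPM, CCND1 lies in the right tail at 224 CPM, and the others spread between. CCND2, with 1 count, is left out.

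The kinases that D cyclins activate and INK4 proteins bind were both detected. CDK4 had 7049 counts, or 282 CPM (275 to 288), more than any member. CDK6 had 891 counts, or 35.6 CPM (33.3 to 38.0). CDK4 drew 88.8% (88.1 to 89.5) of their joint reads. Pocket proteins, the substrates of these kinases, were detected at 3 of 3, against 69.7% of all protein-coding genes. Their median was 20.5 CPM. RB1, the retinoblastoma gene, had 195 counts, or 7.80 CPM (6.74 to 8.97), more than 24.3% of detected protein-coding genes, while its relatives RBL1 (p107) and RBL2 (p130) had 513 and 1659 counts, or 20.5 and 66.3 CPM. RB1 therefore had fewer reads than any INK4 or CIP/KIP gene.

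E2F factors and their DP partners were detected at 10 of 11, against 69.7% of all protein-coding genes. The median over the 11 was 19.4 CPM, between 9.83 CPM for all protein-coding genes and 26.4 CPM for the detected ones. E2F4, a factor that mostly represses in resting cells together with RBL2, led with 4278 counts, or 171 CPM (166 to 176). TFDP2 and TFDP1, the DP partners, followed with 1901 and 1748 counts. TFDP3 was at 0. Among the activating factors E2F1 had 1619 counts, or 64.7 CPM (61.6 to 68.0), E2F3 had 469 and E2F2 had 205. E2F5, a second repressor, had 486 counts, and E2F6, E2F7 and E2F8, which repress without pocket proteins, had 380, 681 and 446. The E2F reads were thus spread over both activators and repressors.

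Of 16 E2F target genes of DNA synthesis all were detected, against 69.7% of all protein-coding genes, with a list median of 68.0 CPM. Above the median of detected protein-coding genes lay 14 of them, against 34.8% of all protein-coding genes. MCM7 and MCM2, subunits of the replicative helicase, had 10385 and 4590 counts, and the thymidine kinase TK1 had 4441. The list of cyclins E, A and B with their kinases was detected at 8 of 8 with a median of 29.3 CPM, led by CCNB1, the mitotic cyclin, with 3222 counts, CDK2 with 1406 and CDK1 with 803. The E cyclins, which follow D cyclins in late G1, were lower in reads. CCNE1 had 245 counts, or 9.80 CPM (8.61 to 11.1), and CCNE2 had 119 counts, or 4.76 CPM (3.94 to 5.69), a ratio of 2.06 (1.65 to 2.58). Both had fewer reads than every detected member, but the interval of CCNE1 overlapped that of CDKN2D, at 10.6 CPM (9.36 to 12.0).

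**Figure D4:**
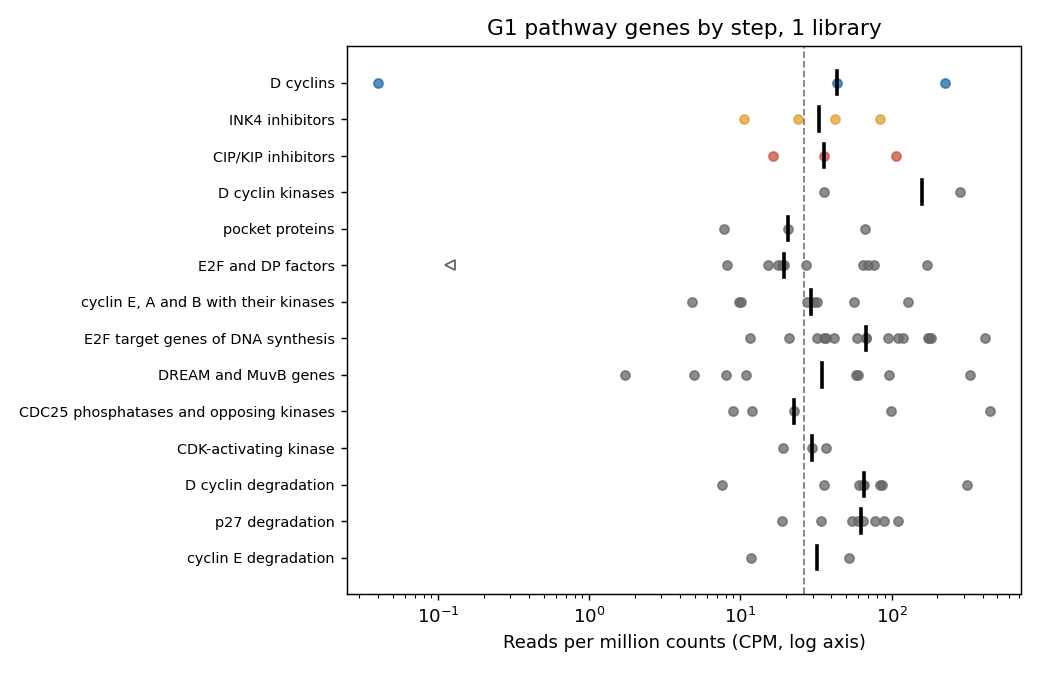
CPM on a log axis for each listed gene of 14 groups of the G1 pathway in the single library, with circles for genes, black bars for group medians and a left-pointing triangle for the limit of 0.12 CPM of TFDP3, listed at 0. The dashed line is the median of detected protein-coding genes, 26.4 CPM, and the D cyclins run from 0.04 to 224 CPM.

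The DREAM complex, which holds cell cycle genes silent in resting cells, was read with its MuvB core and activating partners. These genes were detected at 8 of 8, against 69.7% of all protein-coding genes, with a median of 34.7 CPM. Above the median of detected protein-coding genes lay 4 of the 8, against 34.8% of all protein-coding genes. The partners of active cycling led, with 8265 counts for MYBL2 and 2412 for FOXM1, followed by the histone chaperone RBBP4 with 1509. Of the CDC25 phosphatases and the kinases that oppose them, 5 of 5 were detected and 2 of 5 lay above that median. They were led by CDC25B with 11197 counts, PKMYT1 with 2490 and WEE1 with 570. CDK7, CCNH and MNAT1, which together form the kinase that activates CDKs, had 923, 746 and 481 counts.

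Protein turnover sets the amount of several members, and genes of that machinery were read beside them. Over all protein-coding genes 69.7% were detected. Of 8 genes for p27 degradation all were detected, with a median of 62.7 CPM. RNF123, a ligase for p27 in G1, had 2764 counts, the scaffold CUL1 had 2231 and UBAC1, the partner of RNF123, had 1952. SKP2, the F-box protein that recognises phosphorylated p27, had 468 counts, or 18.7 CPM (17.1 to 20.5), and its cofactor CKS1B had 1510, or 60.4 CPM (57.4 to 63.5). SKP2 thus had fewer reads than CDKN1B itself. Of 8 genes for D cyclin degradation all were detected, with a median of 65.3 CPM. DDB1, an adaptor of CUL4 ligases, led with 7851 counts, ahead of GSK3B, a kinase that marks cyclin D1 for export and destruction, with 2159 and CUL4B with 2099. AMBRA1, the substrate receptor for D cyclins, had 1629 counts. For cyclin E, the receptor FBXW7 had 296 counts and CUL3 had 1300.

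Regulators upstream of the inhibitor genes were also read, and here too the share detected over all protein-coding genes was 69.7%. Of 7 listed transcription factors all were detected, with a median of 44.4 CPM. SMAD3, a mediator of TGF-beta signals to CDKN2B, had 3384 counts, or 135 CPM (131 to 140). FOXO3, which can activate CDKN1B, had 1756 counts, and ZBTB17, also called MIZ1, which binds the CDKN2B and CDKN1A promoters, had 1386. FOXO1 had 135 counts. Of 11 Polycomb and H3K27 demethylase genes, whose products silence or open the CDKN2A locus, all were detected, with a median of 24.6 CPM. The demethylase gene KDM6B led with 2535 counts, followed by EZH2, the methyltransferase, with 1416 and RING1, a ubiquitin ligase subunit, with 1360. BMI1, a classic repressor of CDKN2A, had 462 counts.

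CDKN1C lies in an imprinted cluster, so its neighbours were read with it. PHLDA2, an imprinted growth-restraining gene, had 3471 counts, or 139 CPM (134 to 143), and the transporter gene SLC22A18 had 1079. KCNQ1OT1, the non-coding RNA that silences the cluster on the paternal chromosome, had 454 counts, or 18.2 CPM (16.5 to 19.9). CDKN1C had 411 counts, or 16.4 CPM (14.9 to 18.1), and these read numbers take no account of transcript length. KCNQ1, which KCNQ1OT1 overlaps, had 19 counts, and without a known strand setting the reads of this pair cannot be told apart with certainty either. H19 had 99 counts and IGF2 was at 0. Of these 6 genes, 5 were detected, against 69.7% of all protein-coding genes. The counts do not tell the parental copies apart.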

How the data were processed

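The deposited file for wild-type RNA-seq replicate 2 gives raw counts of reads per gene, as whole numbers that the authors did not normalise. Tools named in the submitters' processing notes, with no role for each, are featureCounts and STAR, then deepTools (3.3.0), MACS2 (2.1.1.20160309) and Bowtie2 (2.3.3.1), and the build is hg19. Per the labels' protocols, total RNA (1 ug) went into a directional library kit. The sources used here do not give the annotation release, the strand setting or the rule for shared reads.

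Identifiers were matched without version to current symbols (56373 of 60880 rows, 99.8% of counts), and protein-coding status came from RefSeq (GRCh38.p14), which was used for names, overlaps and promoter windows. CPM, exact Poisson (Garwood) and binomial (Clopper-Pearson) 95% intervals and 20 ratios of counts were computed. For a gene at 0 the limit is that of 3 counts. Without molecular identifiers, reads are not all separate molecules, so intervals and limits reflect counting error alone. With 1 library there is no replicate check and no p-value.

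The members and lists were chosen with earlier results of these data known. The rule named all 10 members, the 3 highest genes and up to 3 under 10 counts of each other list, lists of 3 or fewer in full, and E2F1 to E2F8, CCNE1, CCNE2, SKP2 and CKS1B. AMBRA1, NKX2-1, BMI1, FOXO1, KCNQ1, H19 and the pseudogene and antisense genes were added after their counts were seen. Some genes of the other lists were left out and are not reported here. Alternatives were other minimums, thinning to 50%, other totals and other reference sets. Code was tested on simulated counts. Software was SciPy 1.17.1, NumPy 2.4.6, pandas 2.3.3 and Matplotlib 3.10.9 under Python 3.11.15.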

Additional observations from a re-analysis of the deposited data

How the results depend on the processing

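The number of members detected, 9 at a minimum of 10 counts, was 10 at a minimum of 1 count and 9 at 50 counts, at 1 CPM and after thinning to 50%. All 20 ratios stayed inside their intervals after thinning, which bears on counting error only. The ratio of CCND1 to CCND2 rests on 1 CCND2 read and became 2832 after thinning. Members' CPM were 1.06 times as high over a total without mitochondrial genes and 1.08 times over one without the 10 highest genes, which took 3 and 6 members past their Poisson intervals. Percentiles of the 9 detected members rose by up to 8.18 points among protein-coding genes with at least 1 count, and by up to 15.6 points among all genes with at least 10 counts, which moved CDKN2C above the median in both sets and CDKN1C in the second. Ratios and shares per length were not run, because the reference tables give gene spans with introns and no exon lengths. No paired analysis was possible because a single RNA-seq library was analysed.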

Other observations

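Further cyclins and cyclin-dependent kinases, outside the lists above and chosen after their counts were seen, were also read. CCNL2 and CCNL1, cyclins of RNA splicing, had 4327 and 1601 counts, or 173 and 64.0 CPM. CCNI had 2962 counts and CCNF, a substrate receptor of a ubiquitin ligase, had 1681. The cyclin G genes CCNG1 and CCNG2 had 835 and 535 counts. CCNB3 and CCNP had 10 and 5 counts. Among the kinases, CDK16 had 6190 counts, or 247 CPM (241 to 254), CDK10 had 3347, CDK13 had 2490 and CDK9, a kinase of transcription elongation, had 2465, while CDK15 had 12 and CDK3 had 32.

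Genes whose names resemble those of the inhibitors but whose products are not CDK inhibitors of these families were also read. CDK2AP2 had 6496 counts, or 260 CPM (253 to 266), against 684 for CDK2AP1. CDKN3, a phosphatase that acts on CDK2, had 383 counts, and CDKN2AIP, a partner of the ARF protein, had 447.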
